A study of Homo sapiens with 6 samples.

Results

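The genes described here lie in a window of 15 megabases (Mb) on the long arm of human chromosome 3, around bands 3q21 and 3q22. A gene was a member when its start lay between positions 120000000 and 135000000 in GRCh37 and it had at least 10 reverse-stranded counts in each of the 6 samples. Of the 331 genes that the tables list in the window, 108 were members, out of 17480 genes with that many counts in the whole series. The window was chosen by the log2 fold changes between the genotypes, so the differences between genotypes below describe the members and test nothing about the window.

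RNA sequencing of AID-DivA cells without treatment compared 3 WT samples with 3 samples of the ARID1A-KO genotype, in which 2 CRISPR guides were used against ARID1A. AID-DivA is a derivative of the U2OS osteosarcoma line that carries an inducible AsiSI restriction enzyme, which was not induced in these samples. Both genotypes carry that construct. The sources used here do not state from which knockout clone or clones the RNA came, so an effect of the knockout and a difference between lines cannot be told apart. They also do not say whether the replicates, numbered 3 to 5 in each genotype, were separate cultures, so the p-values measure only the spread between these samples.

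ARID1A is the DNA-binding subunit of a SWI/SNF chromatin remodeling complex, which moves nucleosomes at promoters and enhancers. The window holds genes of unrelated function, among them a subunit of the replicative helicase, the channel through which secretory proteins enter the endoplasmic reticulum, and receptors for axon guidance cues. Many of its genes sit in head-to-head pairs that share a promoter region, an arrangement that is frequent in the human genome.

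ARID1A itself (ENSG00000117713.13, chromosome 1 from 27022524 to 27108595) had 166, 178 and 177 CPM (counts scaled to the library's size) in WT replicates 3, 4 and 5 and 25.1, 27.5 and 25.2 CPM in ARID1A-KO replicates 3, 4 and 5. The samples of each genotype lay together, far apart from the other genotype, and the log2 fold change of ARID1A-KO over WT was -2.74 ± 0.07 (SE, n = 3 per genotype, adjusted p = 9.66e-08 by the quasi-likelihood test of edgeR). Each sample had between 54512105 and 84088708 reverse-stranded counts in all, and the members took between 0.627% and 0.658% of them in WT and between 0.448% and 0.469% in ARID1A-KO. Of the osteosarcoma markers checked, RUNX2 (6.11 to 10.5 TPM, the level scaled to gene length), COL1A1 (119 to 204), SPARC (359.6 to 727) and VIM (1943 to 3978) were present in every sample, whereas COL1A2 (0.0361 to 0.108) and BGLAP (0.313 to 0.677) were near 0. The T cell gene CD3E reached at most 0.0237 TPM and the leukocyte gene PTPRC 1.3, but the epithelial genes KRT8 (117 to 261) and EPCAM (7.47 to 12.6) were also read, and CDH1 was low (0.326 to 1.11). Several of these markers differed between genotypes. ALPL (log2 fold change -2.45, from 2.23 to 17 TPM over the samples), SPARC (-0.89), COL1A1 (-0.47), KRT8 (-0.96), CDH1 (-1.19) and PTPRC (-2.10) were called lower in ARID1A-KO, VIM (0.84) and EPCAM (0.44) were called higher, and RUNX2 (-0.03) and COL1A2 (-0.46) did not pass the threshold. Their part in the members' values was not tested. In bulk RNA, fewer cells expressing a gene and less RNA per cell cannot be told apart.

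Most members were lower in ARID1A-KO cells, and among the better expressed ones 56 of 89 lay within 0.25, on the log2 scale, of their common median. Of all genes of that expression, 19.7% lay as close to this median. Of those on chromosome 3 from 95 Mb on, outside the window, 52.5% did, so this closeness is not particular to the window. Of the 108 members, 96 had a negative log2 fold change. At an adjusted p under 0.05, 70 members were lower and 2 were higher, where 18.4% and 17.8% of the 19599 genes tested were called lower and higher, 36.2% in all. The CPM of all 3 ARID1A-KO samples lay below those of all 3 WT samples for 75 members and above them for 5, where 24.8% of the genes tested had no overlap in each direction, 49.5% in all. Because the contrast chose the window, nothing is read from these counts. The 89 members with a mean log2 CPM over 1, called expressed members below, had a median log2 fold change of -0.44, which corresponds to 0.739 of the WT level, and their middle 50% lay between -0.59 and -0.29. The median over all genes tested was 0.0066.

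The shift appeared in each ARID1A-KO sample. Relative to the mean of the WT samples on the log2 CPM scale, the median over the 89 expressed members was 0.0022, 0.0060 and -0.0023 in WT replicates 3, 4 and 5. In ARID1A-KO replicates 3, 4 and 5 it was -0.40, -0.45 and -0.46. The ARID1A-KO samples thus averaged -0.44 ± 0.032 (SD, n = 3) and the WT samples 0.0019 ± 0.0042, with no overlap. The WT average lies near 0 because the mean of these same samples was subtracted from each gene. Members below the WT mean numbered 84, 84 and 80 of 89 in the ARID1A-KO samples. As 3 samples against 3 cannot give an exact permutation p below 0.1, and the contrast chose the window, no test was made of this value.

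**Figure D1:**
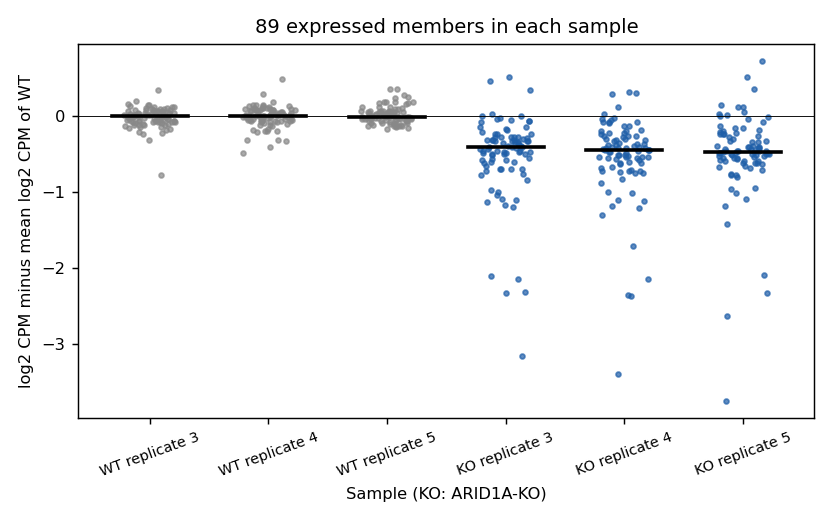
Log2 CPM of each of the 89 expressed members minus its mean over the WT samples (y axis), by sample (x axis); each point is 1 gene and each bar the median of a sample. The medians of the 3 ARID1A-KO samples lie between -0.46 and -0.40 and those of the WT samples at about 0, while single genes in ARID1A-KO reach from -3.75 to 0.73.

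The lower expression did not begin or end at the limits of the window. Expressed genes of chromosome 3 below 90 Mb numbered 355 and had a median log2 fold change of -0.013. From 95 Mb to the end of the chromosome, outside the window, 299 expressed genes had a median of -0.34, and 254 of them were negative. All 21 bins of 5 Mb from 95 Mb on had a negative median, from -0.57 to -0.16, whereas the medians of the 16 bins below 90 Mb ran from -0.26 to 0.14. Within the window the medians were -0.47 for 34 genes between 120 and 125 Mb, -0.41 for 35 genes between 125 and 130 Mb and -0.53 for 20 genes between 130 and 135 Mb, and all 20 of the last bin were negative. The 12470 expressed genes of the other chromosomes had a median of 0.0067.

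**Figure D2:**
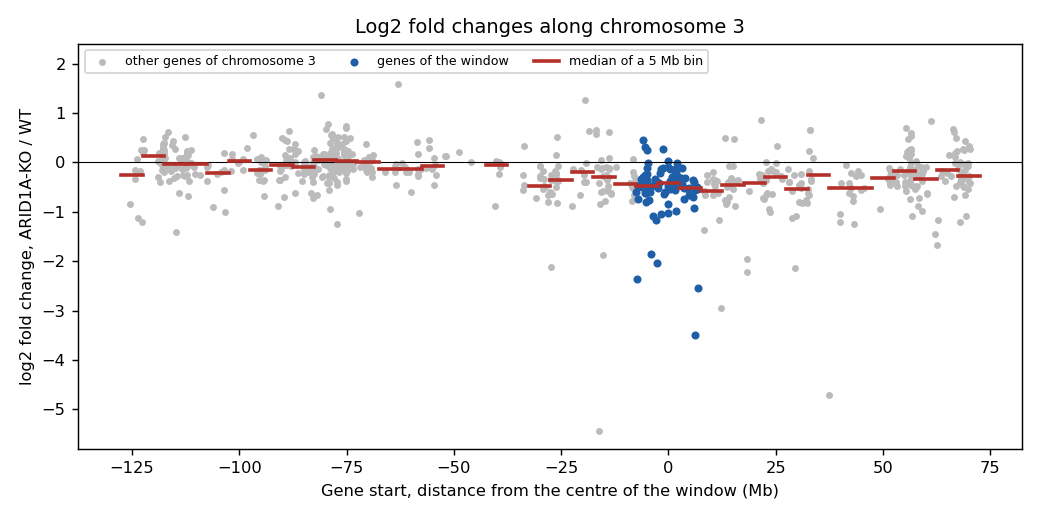
Log2 fold change (y axis) of the 747 expressed genes of chromosome 3 against the distance of their start from the centre of the window in Mb (x axis); blue points are genes of the window and red bars are medians of bins of 5 Mb. All 21 bars to the right of the gap at the centromere lie below 0, while those to its left lie on both sides of 0.

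The genes at the position limits of the rule had negative values on both sides. GSK3B-DT (-0.37, adjusted p = 0.119) lay just before the window, and LRRC58 (-0.59) and FSTL1 (-2.36) were its first members. At the other end, CEP63 (-0.49) and EPHB1 (-2.55) were the last members, and RP11-657O9.1 (-0.79) and PPP2R3A (-1.37) came next. The call of RP11-657O9.1 was lost in 5 of 12 alternatives. The lowest counts inside the rule were 10 for RP11-797D24.3 (-0.01 ± 0.33) and 11 for RP11-375I20.6 (-1.03 ± 0.27). The highest just outside it were 9 for both EFCC1 (0.27 ± 0.46) and RP11-434H6.7 (-0.15 ± 0.31). Of the genes at the count limit, only RP11-375I20.6 passed the threshold (adjusted p = 0.0142), and it lost the call in 3 of 12 alternatives. Of the 223 genes of the window that missed the count of 10, 108 had no count in any sample and 12 could be tested.

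The members of high expression lay closest to each other. Among the 30 expressed members of highest WT TPM, the median log2 fold change was -0.45, the median absolute deviation from it 0.081, and 27 lay within 0.25 of the regional median. For the 30 of lowest WT TPM the median was nearly the same, -0.46, but the median absolute deviation was 0.33 and 11 lay within 0.25. Low levels bring fewer counts and less certain values, and how far this widened the scatter was not tested. Over all 89 expressed members, 56 lay that close, 10 lay 0.5 or more below the regional median and 4 lay 0.5 or more above it. The 80 protein-coding expressed members had a median of -0.47 and the 9 others one of -0.29. By total exon length, the medians were -0.37 for the 30 shortest, -0.42 for the next 29 and -0.57 for the 30 longest. The 19 members with lower expression scattered widely around a median of -0.14.

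**Figure D3:**
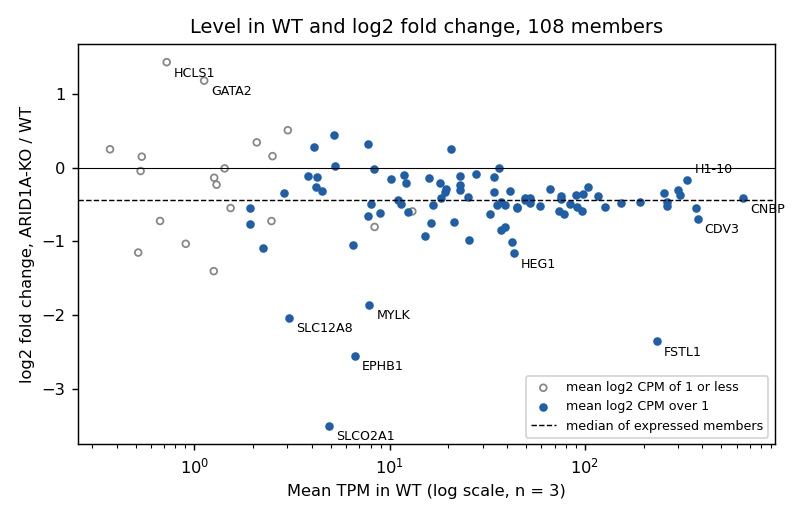
Log2 fold change (y axis) of the 108 members against their mean TPM in WT (x axis, log scale, n = 3); filled circles are expressed members, open circles the others, and the dashed line is the median of the expressed members. The filled circles close in on the line from left to right, with FSTL1 as the exception among the abundant genes.

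The most abundant members followed the region with few exceptions. TPM divides by gene length, so it allows levels to be compared between genes. CNBP, a zinc finger protein that binds single-stranded nucleic acids, led with 647 ± 27.6 TPM in WT (SD, n = 3) and 490.4 ± 14.6 in ARID1A-KO, and its log2 fold change was -0.41 ± 0.06 (adjusted p = 0.000869). Its WT values lay above those of all other members. CDV3 (378 ± 23 TPM), SEC61A1 (372 ± 8.18), the linker histone gene H1-10 (335 ± 42.7) and RAB7A (307 ± 8.71) came next, and in this order the WT values of each overlapped those of its neighbor. Of these, CDV3 changed by -0.70, SEC61A1 by -0.54 and RAB7A by -0.37, all lower past the threshold. H1-10 did not pass it (-0.16 ± 0.14, adjusted p = 0.387).

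**Figure D4:**
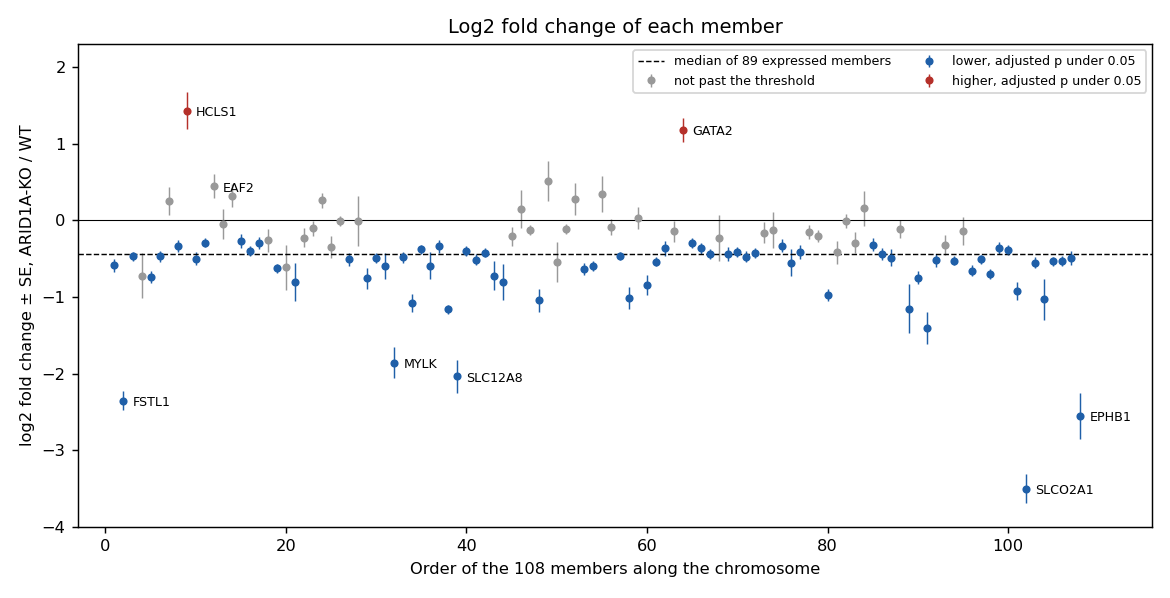
Log2 fold change with its SE (y axis) of the 108 members in their order along the chromosome (x axis); blue marks members called lower, red members called higher, gray the others, and the dashed line is the median of the 89 expressed members. Blue points line up near the dashed line at -0.44, with SLCO2A1, EPHB1, FSTL1, SLC12A8 and MYLK far below it and only HCLS1 and GATA2 in red.

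Of the 10 expressed members that lay 0.5 or more below the regional median, all were called lower. Of these, MYLK, KALRN, HEG1 and SLC12A8 were near each other, and HEG1 and SLC12A8 followed directly in the order of members. CCDC14 (-0.49) lay between MYLK and KALRN. UMPS (-0.38), RP11-71H17.9 (-0.59) and ITGB5 (-0.34) lay between KALRN and HEG1. These members between them were all within 0.25 of the regional median. SLCO2A1, the prostaglandin transporter, had 5.73, 6.49 and 5.43 CPM in WT replicates 3, 4 and 5 and 0.632, 0.528 and 0.409 CPM in ARID1A-KO replicates 3, 4 and 5. All WT samples lay far above all ARID1A-KO samples, and the log2 fold change was -3.50 ± 0.19 (adjusted p = 3e-06), to 0.0882 of the WT level. EPHB1, a receptor tyrosine kinase for ephrin-B ligands, had 5.74, 13.8 and 12 CPM in WT and 1.94, 1.89 and 1.57 CPM in ARID1A-KO (-2.55 ± 0.30, adjusted p = 0.000199). WT replicate 3 held less than the other WT samples and still stood above every ARID1A-KO sample.

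FSTL1, a secreted glycoprotein related to follistatin, was the most abundant gene among those that fell by more than 1 on the log2 scale. It had 527, 368 and 494 CPM in WT and 91.9, 88.3 and 91.3 CPM in ARID1A-KO, a log2 fold change of -2.36 ± 0.12 (adjusted p = 2.79e-06). The ARID1A-KO samples lay close together, and WT replicate 4 was the lowest of the WT samples. In TPM, FSTL1 stood among the top members in WT with 234 ± 44 and fell to 46.1 ± 1.62 in ARID1A-KO. The gene spans chromosome 3 from 120111140 to 120170100 on the minus strand (ENSG00000163430.5).

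MYLK, the myosin light chain kinase, had 43.3, 31.7 and 43.8 CPM in WT and 9.09, 8.84 and 14.6 CPM in ARID1A-KO (-1.86 ± 0.20, adjusted p = 0.000134). ARID1A-KO replicate 5 was the highest of its group and WT replicate 4 the lowest of the other, without overlap. SLC12A8, a member of the cation-chloride cotransporter family, had 4.95, 3.10 and 3.80 CPM in WT and 0.852, 1.16 and 0.886 in ARID1A-KO (-2.04 ± 0.21, adjusted p = 0.000115). It overlaps ZNF148 on the same strand, so reads in the shared stretch cannot be assigned with certainty. HEG1, a receptor at cell junctions that binds KRIT1, fell from 103, 94.6 and 96 CPM to 42.8, 42.4 and 45.7 CPM (-1.16 ± 0.06, adjusted p = 3.18e-06), with narrow groups that stood well apart.

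The remaining members of the 10 with the most negative values were KALRN, ALDH1L1, PODXL2 and TMCC1. KALRN, a guanine nucleotide exchange factor for small GTPases, had 11.5, 12 and 14.3 CPM in WT and 5.54, 5.84 and 6.42 in ARID1A-KO (-1.08 ± 0.12). For ALDH1L1, an enzyme of folate metabolism, the values were 18.2, 18.5 and 23.8 CPM and 9.28, 8.13 and 11.7 CPM (-1.05 ± 0.15). Both fell to about the same share of the WT level, 0.472 and 0.484, without overlap between genotypes. PODXL2, a sialomucin ligand of selectins, had 20.4, 18.4 and 24.8 CPM in WT and 9.83, 9.23 and 12.3 in ARID1A-KO (-1.01 ± 0.14). TMCC1, a membrane protein of the endoplasmic reticulum involved in endosome fission, had 42.4, 46.3 and 49.3 CPM and 23.5, 22.7 and 23.9 CPM (-0.98 ± 0.07). The groups did not overlap for either, and the adjusted p-values of these 4 genes ran from 1.9e-05 to 0.000704.

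Only HCLS1 and GATA2 were called higher, both at low levels. GATA2, a zinc finger transcription factor of hematopoietic and endothelial cells, had 1.21, 1.01 and 1.19 CPM in WT and 2.66, 2.33 and 2.73 CPM in ARID1A-KO. Every ARID1A-KO sample stood above every WT sample, at 2.26 times the WT level (1.18 ± 0.16, adjusted p = 0.000421). HCLS1, a cortactin-related actin regulator of hematopoietic cells, had 0.779, 0.888 and 0.842 CPM in WT and 2.81, 2.49 and 1.51 CPM in ARID1A-KO (1.43 ± 0.24, adjusted p = 0.00168). Here ARID1A-KO replicate 5 was the lowest of its group but still above the WT samples. Mean WT levels were 1.12 ± 0.114 TPM for GATA2 and 0.722 ± 0.0393 TPM for HCLS1.

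GATA2-AS1, which overlaps GATA2 on the other strand, was no member because it had only 2, 3 and 3 counts in the WT samples. In the ARID1A-KO samples it had 20, 35 and 52 counts, and it was called higher (adjusted p = 0.000364). Counts on the forward strand came to between 5.83% and 6.15% of those on the reverse strand, so a part of antisense counts can be carryover from the partner gene, which was not tested. The other gene of the window that missed the count of 10 and was called, TMEM108-AS1, went the other way, from 38, 80 and 75 counts to 5, 2 and 5 (adjusted p = 0.000118).

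Promoters are shown for the abundant member with the largest fall (FSTL1) and for the pair that rose (GATA2 and HCLS1), from the RefSeq table, whose build is GRCh38.p14. Each is a run of 280 bases from 250 bases before the RefSeq start to 30 after it, and its place in GRCh37 comes from the only exact match there. FSTL1 lies at chr3:120169810-120170089, GATA2 at chr3:128212015-128212294 and HCLS1 at chr3:121379721-121380000, all on the minus strand. Capitals mark TGANTCA, the core of the AP-1 motif, which was found in HCLS1.
FSTL1: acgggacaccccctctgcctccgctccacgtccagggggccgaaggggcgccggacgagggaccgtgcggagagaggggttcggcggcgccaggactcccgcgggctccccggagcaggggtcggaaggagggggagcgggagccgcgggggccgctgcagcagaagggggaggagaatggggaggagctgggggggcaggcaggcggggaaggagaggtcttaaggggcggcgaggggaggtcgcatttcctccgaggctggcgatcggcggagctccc
GATA2: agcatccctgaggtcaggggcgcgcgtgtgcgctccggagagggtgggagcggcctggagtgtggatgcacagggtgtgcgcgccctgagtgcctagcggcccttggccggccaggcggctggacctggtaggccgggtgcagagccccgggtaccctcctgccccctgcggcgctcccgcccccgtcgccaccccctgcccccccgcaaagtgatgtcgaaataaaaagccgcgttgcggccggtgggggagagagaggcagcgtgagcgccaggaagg
HCLS1: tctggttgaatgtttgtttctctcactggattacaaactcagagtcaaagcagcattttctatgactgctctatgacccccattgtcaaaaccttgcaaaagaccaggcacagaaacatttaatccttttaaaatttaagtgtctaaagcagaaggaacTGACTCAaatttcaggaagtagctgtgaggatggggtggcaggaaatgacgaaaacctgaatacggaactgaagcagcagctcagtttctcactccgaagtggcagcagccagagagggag
The AP-1 core stood in 3 of the 85 members' promoters that matched the table (3.53%) and in 7.76% of all 27305 promoters of 300 bases, read on both strands. The TEAD motif GGAATG was in 6 of the 85 (7.06%) against 14% of all, and TATAAA in 7 (8.24%) against 12%. A match is a description of the letters. No promoter is shown for SLCO2A1.

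**Figure D5:**
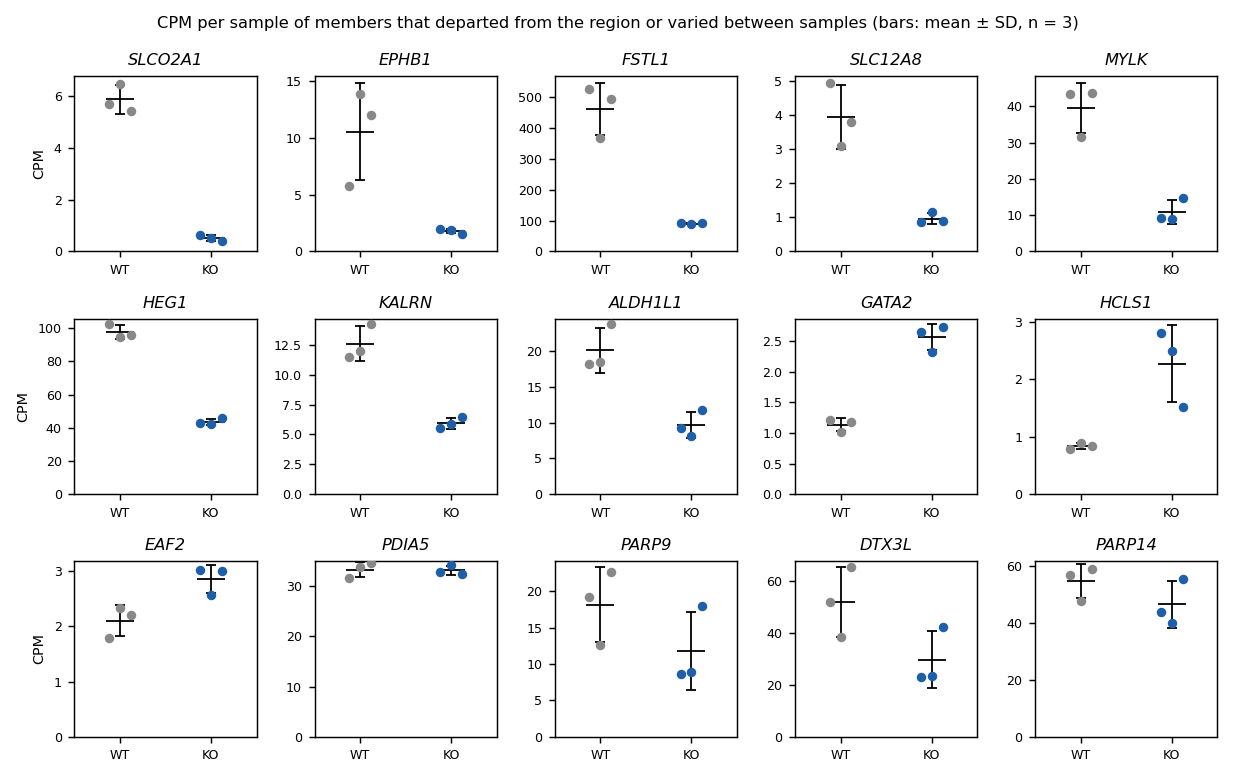
CPM (y axis, from 0) of 15 members in each of the 3 WT (gray) and 3 ARID1A-KO (blue) samples; the bars are the mean ± SD (n = 3). In the upper rows all WT points lie above all ARID1A-KO points down to ALDH1L1, GATA2 and HCLS1 run the other way, and in PARP9, DTX3L and PARP14 the groups overlap.

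At the other end, the expressed members near or above 0 included EAF2, CSTA, SLC49A4, TXNRD3 and PDIA5. These had values between -0.01 and 0.45, and none of the 5 passed the threshold. EAF2, a factor of RNA polymerase II elongation, had 1.78, 2.32 and 2.20 CPM in WT and 3.01, 2.57 and 3.00 CPM in ARID1A-KO, without overlap, but just missed the threshold (0.45 ± 0.16, adjusted p = 0.0508). CSTA, the cysteine protease inhibitor cystatin A, had 2.47, 2.16 and 2.65 CPM and 3.36, 3.02 and 2.69 CPM (0.32 ± 0.15, adjusted p = 0.128). SLC49A4, a transporter of the SLC49 family, had 15.6, 18.6 and 16.7 CPM in WT and 21.5, 20.9 and 18.5 in ARID1A-KO (0.26 ± 0.09, adjusted p = 0.0590). Its lowest ARID1A-KO sample lay just under its highest WT sample. Without WT replicate 4, EAF2 and SLC49A4 passed the threshold, with adjusted p-values of 0.0441 and 0.0280, and SLC49A4 also did without ARID1A-KO replicate 5 (adjusted p = 0.0287) and with the replicate number as a block (adjusted p = 0.0478).

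TXNRD3, a thioredoxin reductase, lay 0.72 above the regional median, and 0.39 above it in the fit without ARID1A-KO replicate 5. It had 3.81, 3.23 and 3.56 CPM in WT and 3.58, 3.33 and 5.86 CPM in ARID1A-KO, and without that sample its log2 fold change was -0.028 in place of 0.28. PDIA5, a protein disulfide isomerase, had 31.6, 33.7 and 34.5 CPM in WT and 32.9, 34.1 and 32.3 CPM in ARID1A-KO (-0.01 ± 0.07, adjusted p = 0.941). Its overlap with SEC22A on the same strand leaves part of its reads uncertain.

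The 10 most positive values among expressed members without overlap between genotypes belonged to EAF2, CSTA, MIX23 (-0.27), FAM86HP (-0.29), IQCB1 (-0.29), RPN1 (-0.30), WDR5B (-0.30), PIK3R4 (-0.32), CPNE4 (-0.32) and RPL32P3 (-0.33). FAM86HP and CPNE4 did not pass the threshold (adjusted p = 0.143 and 0.0914). FAM86HP and RPL32P3 are pseudogenes, and reads from near-identical copies can be counted in them. The calls of MIX23 and WDR5B depended on single samples, with adjusted p-values of up to 0.126 for MIX23 without WT replicate 4 and 0.0615 for WDR5B without ARID1A-KO replicate 4.

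Genes of DNA replication and repair moved with the region. Over all 108 members, 64.8% were called lower, against 18.4% of the genes tested. The counts of calls in this list and in those that follow are descriptions to be read beside these shares. All 7 listed genes were members, 6 were called lower and 1 was not, and their median was -0.37. MCM2, a subunit of the replicative helicase, had 218, 207 and 218 CPM in WT and 152, 160.2 and 153 CPM in ARID1A-KO (-0.47 ± 0.06, adjusted p = 0.000262), the largest fall of the list. POLQ, the polymerase of theta-mediated end joining, had 76.9, 67.4 and 69.2 CPM and 56.6, 52.1 and 60.8 CPM (-0.33 ± 0.08). TOPBP1, a scaffold that activates the ATR kinase, had 159, 135 and 141 CPM and 113, 109 and 115 CPM (-0.36 ± 0.07). None of the 3 genes had overlapping groups.

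HMCES, which shields abasic sites in single-stranded DNA, changed by -0.43 ± 0.06, MBD4, a DNA glycosylase for mismatches at CpG sites, by -0.42 ± 0.09, and RUVBL1, an ATPase of several chromatin remodelers, by -0.37 ± 0.10. These 3 passed the threshold with adjusted p-values of 0.000616, 0.00691 and 0.0203. RUVBL1 lost its call without WT replicate 5 (adjusted p = 0.0636). NEK11, a kinase of the DNA damage checkpoint, was the gene not called (4.27, 4.93 and 4.76 CPM in WT, 4.48, 4.26 and 4.16 CPM in ARID1A-KO, -0.11 ± 0.12, adjusted p = 0.491).

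PARP9, DTX3L and PARP14, neighbors that respond to interferon, varied together from sample to sample. PARP9 and DTX3L form a complex in which DTX3L is the ubiquitin ligase and PARP9 the ADP-ribosyltransferase family member, and PARP14 transfers single ADP-ribose units. DTX3L had 52.1, 38.5 and 65.5 CPM in WT and 23.1, 23.5 and 42.4 CPM in ARID1A-KO. PARP9 had 19.3, 12.6 and 22.7 CPM in WT and 8.61, 8.88 and 18 CPM in ARID1A-KO. In PARP14 the values were 56.9, 47.7 and 59 CPM in WT and 43.9, 39.9 and 55.5 CPM in ARID1A-KO. In all 3 genes WT replicate 4 was the lowest WT sample and ARID1A-KO replicate 5 the highest ARID1A-KO sample, and that ARID1A-KO sample overlapped the WT range. The same samples were the lowest WT and the highest ARID1A-KO ones in other members, such as MYLK, PODXL2 and H1-10. That order is therefore not particular to these 3 genes.

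Of these 3 members only DTX3L passed the threshold (-0.80 ± 0.25, adjusted p = 0.0320), and it lost the call in 5 of 12 alternatives, with an adjusted p of up to 0.125. PARP9 (-0.61 ± 0.29, adjusted p = 0.136) and PARP14 (-0.23 ± 0.13, adjusted p = 0.183) did not pass, though they did in 4 and 3 of the 12 alternatives. Without ARID1A-KO replicate 5, PARP9 was called lower at -1.06 (adjusted p = 0.00586) and PARP14 at -0.38 (adjusted p = 0.0190). PARP15, the fourth gene of the list, had at most 2 counts in any sample and was no member.

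The promoters of DTX3L (chr3:122282935-122283214) and PARP14 (chr3:122399436-122399715), both on the plus strand, are shown because both hold the motif described next, cut and placed in GRCh37 in the same way as those above. The promoter of PARP9 (chr3:122283602-122283881, minus strand) held none of the motifs searched and is not shown. PARP9 and DTX3L are listed head to head with starts that overlap, and the piece shown for DTX3L lies within the listed PARP9 gene. The absence of a motif therefore covers only the piece searched for PARP9. In capitals are matches to the core of the interferon-stimulated response element (ISRE), GAAA and again GAAA with any 2 bases between them, in both, and in PARP14 the reverse complement of the TEAD motif.
DTX3L: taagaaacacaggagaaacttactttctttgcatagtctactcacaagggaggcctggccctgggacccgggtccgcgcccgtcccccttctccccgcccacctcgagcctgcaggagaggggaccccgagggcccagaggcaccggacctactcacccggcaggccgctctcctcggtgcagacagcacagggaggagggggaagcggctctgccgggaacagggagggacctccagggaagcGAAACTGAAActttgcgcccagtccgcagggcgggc
PARP14: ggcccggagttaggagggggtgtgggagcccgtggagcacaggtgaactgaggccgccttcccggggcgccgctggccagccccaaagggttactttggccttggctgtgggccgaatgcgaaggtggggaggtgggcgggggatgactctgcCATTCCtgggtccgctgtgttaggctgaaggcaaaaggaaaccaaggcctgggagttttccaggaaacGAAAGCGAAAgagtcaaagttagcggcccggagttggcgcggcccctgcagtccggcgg
The ISRE core was in the promoters of 6 of the 85 matched members (7.06%), DTX3L, PARP14, FAM162A, HSPBAP1, IFT122 and MBD4, and in 3.65% of all promoters in the table. Of the other 4, FAM162A (-0.41) and MBD4 (-0.42) were called lower, and HSPBAP1 (-0.10) and IFT122 (-0.15) did not pass the threshold.

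All 15 listed genes of secretory and endosomal trafficking were members, and 13 were called lower, with a median of -0.47. SEC61A1, the pore subunit of the translocon, had 388, 392 and 414 CPM in WT and 273, 274 and 273 CPM in ARID1A-KO (-0.54 ± 0.06, adjusted p = 0.000116). The ARID1A-KO samples were nearly identical. RPN1, a subunit of oligosaccharyltransferase, fell less (262, 272 and 285 CPM in WT, 232, 228 and 206 CPM in ARID1A-KO, -0.30 ± 0.07). COPG1, of the COPI coat, changed by -0.47 ± 0.07, and SRPRB, the beta subunit of the signal recognition particle receptor, by -0.39 ± 0.07.

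RAB7A, the GTPase of late endosomes, had 181, 195 and 194 CPM in WT and 157, 148 and 137 CPM in ARID1A-KO (-0.37 ± 0.07), and RAB6B, a Golgi GTPase, 20.8, 18 and 23.5 CPM and 10.3, 12.3 and 10.2 CPM (-0.92 ± 0.12, adjusted p = 0.000322). RAB6B fell by about as much as TMCC1, the furthest of the group. SNX4, a sorting nexin of endosome recycling, changed by -0.51 ± 0.07, DNAJC13, an endosomal co-chaperone, by -0.53 ± 0.06, GOLGB1, a Golgi tether, by -0.50 ± 0.08, and PIK3R4, the regulatory subunit of the VPS34 lipid kinase, by -0.32 ± 0.08. PDIA5 and RAB43 were not called, and RAB43 shares reads on its strand with the readthrough gene ISY1-RAB43.

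Of 6 listed cilium and centrosome genes, 5 were members and 4 were called lower (median -0.49). CCDC14 changed by -0.49 ± 0.07 and CEP63, a centrosomal protein of centriole duplication, by -0.49 ± 0.09. IFT122, of the retrograde intraflagellar transport complex, had 23, 21.7 and 20.4 CPM and 17.9, 19.1 and 21.7 CPM with overlapping groups (-0.15 ± 0.09, adjusted p = 0.233). CFAP100 had at most 1 count.

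Among guidance and surface receptors, 6 of 7 members were called lower, with a median of -0.59. Beside EPHB1, HEG1 and PODXL2, described above, PLXNA1, a semaphorin receptor, had 179.7, 176 and 198 CPM in WT and 114, 126 and 127 CPM in ARID1A-KO (-0.59 ± 0.07, adjusted p = 0.000200). RYK, a Wnt coreceptor, changed by -0.55 ± 0.07, and ITGB5, the beta subunit of a vitronectin receptor, by -0.34 ± 0.08. PLXND1, the semaphorin receptor of endothelial cells, did not pass the threshold, with 38.1, 40.1 and 41.9 CPM in WT and 32.3, 38.6 and 33.2 CPM in ARID1A-KO (-0.21 ± 0.08, adjusted p = 0.0761), where ARID1A-KO replicate 4 reached into the WT range. SEMA5B, TMEM108, CASR and CD86, the other 4 genes of that list, stayed at 9 counts or fewer in every sample.

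Transcription and chromatin factors were mixed. Of 9 members 4 were lower, 1 (GATA2) was higher and 4 were not called, with a median of -0.30. GTF2E1, a subunit of the general factor TFIIE, had 27.7, 28.8 and 28.7 CPM in WT and 21.5, 19.6 and 20.4 CPM in ARID1A-KO (-0.47 ± 0.07, adjusted p = 0.000816), and ZNF148, a zinc finger factor, changed by -0.40 ± 0.07. CNBP and WDR5B, a paralog of WDR5, were the other two called lower. H1-10 spread widely, with 117, 98.7 and 128 CPM in WT and 84.9, 98.2 and 124 CPM in ARID1A-KO, and its divergent antisense partner H1-10-AS1 had 3.31, 3.31 and 3.30 and 2.04, 2.75 and 4.26 CPM. In both, ARID1A-KO replicate 5 was the highest of its group and the genotypes overlapped. H1-10-AS1 overlaps the far more abundant H1-10 on the other strand, so its counts can be carryover in part, which was not tested. KLF15, a Krüppel-like factor, had the most negative value of the list but was not called (-0.55 ± 0.26, adjusted p = 0.135). It had 0.749, 1.41 and 0.825 CPM in WT and 0.705, 0.728 and 0.625 CPM in ARID1A-KO, and without WT replicate 4 its value was -0.20, less negative than that of GTF2E1.

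The 11 mitochondrial and metabolic genes included 10 called lower (median -0.49). ALDH1L1 fell most. MGLL, the lipase of monoacylglycerols including an endocannabinoid, had 76.4, 87.2 and 92.3 CPM in WT and 51.6, 53.6 and 37.6 CPM in ARID1A-KO (-0.84 ± 0.13, adjusted p = 0.000955), with ARID1A-KO replicate 5 the lowest. MRPL3, a protein of the mitochondrial ribosome, had 156, 168 and 162 CPM and 121, 117 and 99.5 CPM (-0.52 ± 0.08). CHCHD6, of the cristae-shaping MICOS complex, changed by -0.63 ± 0.08, ACAD9, an assembly factor of complex I, by -0.44 ± 0.07, UMPS, which makes uridine monophosphate, by -0.38 ± 0.06, and NUDT16, a nucleotide diphosphatase, by -0.75 ± 0.09. ACAD11, the gene not called, overlaps another gene on its strand (-0.14 ± 0.18, adjusted p = 0.593).

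Ion and solute transporters had the widest spread of these lists, from -3.50 for SLCO2A1 to 0.26 for SLC49A4, with 3 of 6 members called lower and a median of -0.28. ATP2C1, the calcium and manganese pump of the Golgi, had 92.3, 95.9 and 100.2 CPM in WT and 77.2, 72.8 and 62.4 CPM in ARID1A-KO (-0.44 ± 0.08, adjusted p = 0.00287). SLC41A3, a magnesium transporter family member, overlapped between genotypes (48.4, 55.6 and 51 CPM and 46.6, 49.1 and 46.2 CPM, -0.13 ± 0.07, adjusted p = 0.182).

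Of 5 members in kinase, cyclase and cytoskeletal signaling, 4 were lower and 1 (HCLS1) was higher, with a median of -0.76. ADCY5, an adenylyl cyclase, had 3.51, 3.73 and 4.43 CPM in WT and 2.28, 2.33 and 2.28 CPM in ARID1A-KO (-0.76 ± 0.14, adjusted p = 0.00261). AMOTL2, an angiomotin family member that binds YAP, had 169, 175 and 172 CPM and 112, 121 and 122 CPM (-0.54 ± 0.06). All 3 members of the list of ubiquitin and ubiquitin-like modifiers were lower, among them DTX3L and ANAPC13, a subunit of the anaphase-promoting complex (-0.53 ± 0.07). The collagen VI genes COL6A4P2, COL6A5 and COL6A6 had at most 10 counts in any sample and were no members.

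The 38 members outside these lists had a median of -0.34, with 17 called lower and 0 called higher, and ranged from -2.36 to 0.51. KPNA1, an importin alpha, had 157, 149.6 and 143 CPM in WT and 98.9, 97.7 and 94.5 CPM in ARID1A-KO (-0.63 ± 0.06, adjusted p = 5.92e-05). NDUFB4, a subunit of complex I, changed by -0.47 ± 0.06, and RABL3, a small GTPase, by -0.74 ± 0.08. Among the 19 members of lower expression, 6 were called lower and 2 higher, and the furthest down was the noncoding RP11-517B11.7, with 1.09, 0.972 and 0.911 CPM in WT and 0.367, 0.309 and 0.432 CPM in ARID1A-KO (-1.40 ± 0.21, adjusted p = 0.000829).

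Members that start head to head within 1000 bp of each other did not always move alike. There were 15 such pairs. TMCC1 and its divergent noncoding partner TMCC1-DT start 295 bp apart, yet TMCC1 had -0.98 and TMCC1-DT did not pass the threshold, with 8.30, 9.30 and 8.68 CPM in WT and 8.81, 8.55 and 8.69 CPM in ARID1A-KO (-0.01 ± 0.09). IQCB1 (-0.29 ± 0.06) and EAF2 (0.45 ± 0.16) start 104 bp apart. TPRA1 (-0.09 ± 0.10) and MCM2 (-0.47 ± 0.06) overlap at their starts by 28 bp. In other pairs both genes were called lower, such as NUDT16 (-0.75 ± 0.09) with NUDT16-DT (-1.15 ± 0.32), 196 bp apart, and ANAPC13 with CEP63. NUDT16-DT has few counts and lost its call in 5 of 12 alternatives, with an adjusted p of up to 0.0680. The difference within a pair was not tested.

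The spread between replicates was small beside the regional shift for most members. The median coefficient of variation of the members' CPM was 6.34% in WT and 6.43% in ARID1A-KO, with single members up to 40.3% and 45.1%. Calls rest on edgeR's quasi-likelihood fit, adjusted by Benjamini-Hochberg over the 19599 genes tested, and 28 members overlap another listed gene on the same strand, where counts are less certain.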

How the data were processed

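RNA of untreated AID-DivA cells was sequenced as paired reads of 100 bases from a stranded library, in 3 WT and 3 ARID1A-KO samples. The labels name polyA RNA as the molecule, while the protocol names a kit for total RNA. Per the study's methods, STAR (Roddy workflow) placed the reads on GRCh37. The authors deposited featureCounts output, whole-number counts of each gene for either strand and for both, with no normalization. Beside the counts stand the authors' TPM, divided by the sum over autosomal genes, which were deposited as a length-scaled score and are used here for levels without a test. Samples held 54512105 to 84088708 reverse-stranded counts, at which counting error matters only for the lowest genes, and edgeR's common biological coefficient of variation came to 0.111. Between samples of a genotype the chi-square per gene was 7.57 for ARID1A-KO replicates 3 and 4 and 18.1 to 32.9 for the other pairs. All were far more than sampling noise, so each sample counted as 1 replicate. The values cannot show whether the samples were separate cultures.

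After filterByExpr and TMM normalization, the reverse-stranded counts of all 6 samples entered the quasi-likelihood test of edgeR 4.0.16 (limma 3.58.1, R 4.3.3) with genotype as the sole term, and p-values were adjusted by Benjamini-Hochberg over 19599 genes. Genes with an adjusted p under 0.05 are called. Log2 fold changes are ARID1A-KO over WT with their SE, CPM uses TMM library sizes, and expressed genes have a mean log2 CPM over 1. Medians over members, bins and samples were computed in Python 3.11.15 with no test.

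The members and the 11 gene lists (82 genes) were chosen with earlier results of these data known. Genes named are ARID1A, the 10 most negative and 10 most positive expressed members without overlap between genotypes, the 5 members of highest WT TPM, list members called and 0.5 or more from the regional median, the lowest and highest of each list, and the genes at the limits of the rule. Other genes named were chosen after their values were seen. A few genes that the rule names are not reported here. Gene names were matched by Ensembl identifier, which succeeded for 107 of 108 members. Promoters are RefSeq's, found for 85 members.

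Alternatives changed the strand (unstranded counts), the scaling (RLE), the test (DESeq2 1.42.0), the filter (10 counts or more in all samples, or none), the threshold (0.01), the members (protein-coding, higher expression or no same-strand overlap) and the samples (each left out), added the replicate number as a block, and took for TPM the unstranded values and a log2 scale with 1 or 0.1 added. The other assays of the study were not analysed here.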

Additional observations from a re-analysis of the deposited data

How the results depend on the processing

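The regional shift held in direction under every alternative run. The median of the expressed members ran from -0.45 to -0.42 over the fits, and was -0.47 for protein-coding members, -0.47 for members with a mean log2 CPM over 3 and -0.47 for members without an overlap on the same strand. Leaving out each sample in turn moved the medians of the 5 Mb bins to between -0.46 and -0.44 (120 to 125 Mb), -0.44 and -0.35 (125 to 130 Mb) and -0.56 and -0.50 (130 to 135 Mb). It left between 62 and 70 members called lower and between 2 and 4 called higher, the 4 without WT replicate 4. At an adjusted p under 0.01, 4414 genes were called in place of 7099, and 59 of the 72 called members. DESeq2 called 69 members, 68 of them shared. On the TPM scale the median log2 ratio was -0.42, and between -0.42 and -0.40 under the other scales.

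Whether samples of the same replicate number share a batch was not settled. Samples of the same number correlated at -0.18, 0.27 and 0.18 in their deviations from the group means, and samples of different numbers at between -0.42 and 0.30. With the replicate block 75 members were called, 72 of them shared, and 7477 genes in all.

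Over the genes named, 1015 values under the alternatives kept their direction and call, 24 kept the direction and lost the call, 14 gained it and 13 changed sign. RP11-797D24.3 was at 0.00081 with DESeq2, at 0.0012 with the replicate block and between -0.15 and 0.19 without 1 sample. Leaving out 1 sample gave PDIA5 values from -0.053 to 0.0166, TMCC1-DT from -0.058 to 0.0323, TPRA1 from -0.18 to 0.012, H1-10-AS1 from -0.47 to 0.0946, TXNRD3 from -0.0279 to 0.43 and EFCC1 from -0.21 to 0.61. The cause was not tested. Depth limits the 19 members of lower expression most.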
